A study of Rattus norvegicus with 20 samples.

Results

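The genes followed here were 5 of gluconeogenesis, Pck1, Pc, Fbp1, G6pc1 and Slc37a4, together with Ppargc1a, a coactivator that acts on them. They were taken as the probe sets annotated to exactly 1 of these 6 genes, on all 20 arrays. The rule found 5 probe sets for 5 of the 6 genes, among 15866 probe sets and 10411 named genes on the array. Pck1, Pc, Fbp1 and Slc37a4 were bright enough to be tested among 9520 probe sets, and Ppargc1a was not. G6pc1 had 0 probe sets of its own, because the 4 probe sets that carry its name also list Psme3 and Aoc3.

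The arrays measured liver RNA from male rats of the outbred Wistar strain, fed a full diet or a diet reduced by 5, 10, 20 or 30%, for 1 week or 1 month. Per the series' design text restriction began at 6 weeks of age, and a 16 h fast preceded the removal of the liver in all groups, controls included. The sample labels give 6 weeks for the 1 week groups and 9 weeks for the 1 month groups without saying at which point of the study, so duration and age cannot be told apart. The RNA of 5 rats was pooled in each of the 10 groups and each pool was run on 2 arrays, so no condition had a repeated pool and the p-values rest on how far pools depart from a fitted model, not on the spread between rats.

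Gluconeogenesis makes glucose from lactate, amino acids and glycerol, and in the fasted rat the liver is its main site. Pc, pyruvate carboxylase, makes oxaloacetate from pyruvate in mitochondria, and Pck1, the cytosolic phosphoenolpyruvate carboxykinase, turns oxaloacetate into phosphoenolpyruvate. Fbp1 removes a phosphate from fructose bisphosphate. Slc37a4 then carries glucose 6-phosphate into the endoplasmic reticulum, where the catalytic subunit encoded by G6pc1 releases free glucose. Glucagon, through cyclic AMP and the transcription factor CREB, and glucocorticoids are known to raise Pck1, G6pc1 and Ppargc1a in fasting, and insulin lowers them.

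The upstream sequences of 4 of these genes are printed for the consensus letters of the cyclic AMP response element, which they hold or lack. Fasting signals are known to act through this element. Each line gives the 250 bases before the gene's start in RefSeq (build GRCr8, + strand, 5′ to 3′). The windows are chr3:182348322-182348571 for Pck1, chr10:86807409-86807658 for G6pc1, chr8:53619775-53620024 for Slc37a4 and chr14:63634058-63634307 for Ppargc1a. Capitals mark the matches found by a search of both strands.
Pck1: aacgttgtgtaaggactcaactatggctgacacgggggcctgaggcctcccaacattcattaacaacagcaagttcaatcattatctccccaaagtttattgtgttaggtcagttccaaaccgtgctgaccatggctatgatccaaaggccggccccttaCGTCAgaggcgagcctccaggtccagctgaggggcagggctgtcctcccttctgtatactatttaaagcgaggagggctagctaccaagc
G6pc1: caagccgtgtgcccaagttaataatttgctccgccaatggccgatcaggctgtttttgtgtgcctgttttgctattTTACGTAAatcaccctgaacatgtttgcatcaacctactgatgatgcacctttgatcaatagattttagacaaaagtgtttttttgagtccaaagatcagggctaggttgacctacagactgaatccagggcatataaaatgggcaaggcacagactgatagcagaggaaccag
Slc37a4: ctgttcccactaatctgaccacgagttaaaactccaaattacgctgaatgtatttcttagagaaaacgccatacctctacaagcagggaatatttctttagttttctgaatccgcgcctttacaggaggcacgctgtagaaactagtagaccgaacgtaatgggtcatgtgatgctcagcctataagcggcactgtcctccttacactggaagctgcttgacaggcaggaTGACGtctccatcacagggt
Ppargc1a: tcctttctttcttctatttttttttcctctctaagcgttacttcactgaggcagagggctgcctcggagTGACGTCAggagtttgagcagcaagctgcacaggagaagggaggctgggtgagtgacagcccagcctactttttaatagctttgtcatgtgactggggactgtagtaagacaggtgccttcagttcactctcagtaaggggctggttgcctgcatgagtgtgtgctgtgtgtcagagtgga
The capitals in Pck1 are CGTCA, the reverse complement of TGACG, the short form of the element, at positions -90 to -86 from the start. Slc37a4 held TGACG at -20 to -16, in the window of the first of its 2 listed starts, and the window of the other start held TGACG at -203 to -199 and CGTCA at -74 to -70. Ppargc1a held the full element, TGACGTCA, at -181 to -174, which contains TGACG in both orientations. G6pc1 held no TGACG and had TTACGTAA at -174 to -167, which matches the D-box bound by clock-output factors such as Dbp. Only exact letters were searched, so an element that departs from TGACG would not be found, and G6pc1 is not shown to lack one. Among 33469 windows of 250 bases, 18.2% held TGACG, 1.59% held TGACGTCA and 0.108% held TTACGTAA. The E-box CACGTG, which was also searched, stood in 5.59% of windows and in 0 of the 5 members with a listed window. The Fbp1 window held 0 of the 4 motifs. The motifs were chosen with the sequences in view, and a match is a description of letters, not of factor binding.

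Slc37a4, the glucose 6-phosphate transporter, rose with restriction, and its signal in every restricted pool was above both control pools. After normalisation its signal at 1 week was 479.9 in the control pool, 679.5 at 5%, 716 at 10%, 786 at 20% and 772 at 30%. The 1 month pools read 462 in the control, 698 at 5%, 782 at 10%, 715 at 20% and 726 at 30%. Over single arrays the 4 control arrays lay between 453 and 484 (median 474), and the 16 restricted arrays between 663 and 852 (median 723). In bulk liver, a change in the number of cells of a type and a change in RNA per cell cannot be told apart. No restricted array overlapped the controls, a separation upwards that 164 of the 9520 tested probe sets (1.72%) showed. Without normalisation, 14 of the 16 restricted arrays lay above all control arrays.

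The restriction step, which sets the 8 restricted pools against the 2 control pools with duration as a covariate, was 0.64 ± 0.0749 (SE, n = 10 pools) on the log2 scale for Slc37a4. This is a 1.56-fold higher signal (95% interval 1.39 to 1.74), with a limma adjusted p of 0.00106, the 10th smallest p of 9520. The rise was 0.62 as a mean of 4 pools at 1 week, with single pools from 0.50 to 0.71. The rise at 1 month was 0.66, with single pools from 0.59 to 0.76. Slc37a4 was the 1 member called of the 4 tested, where 5.27% of all probe sets passed in either direction and 3.16% passed upwards. The call held in 41 of 41 alternative settings, with the step between 0.61 and 0.85 and the highest adjusted p, 0.0378, when the 1 month control pool was left out.

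**Figure D1:**
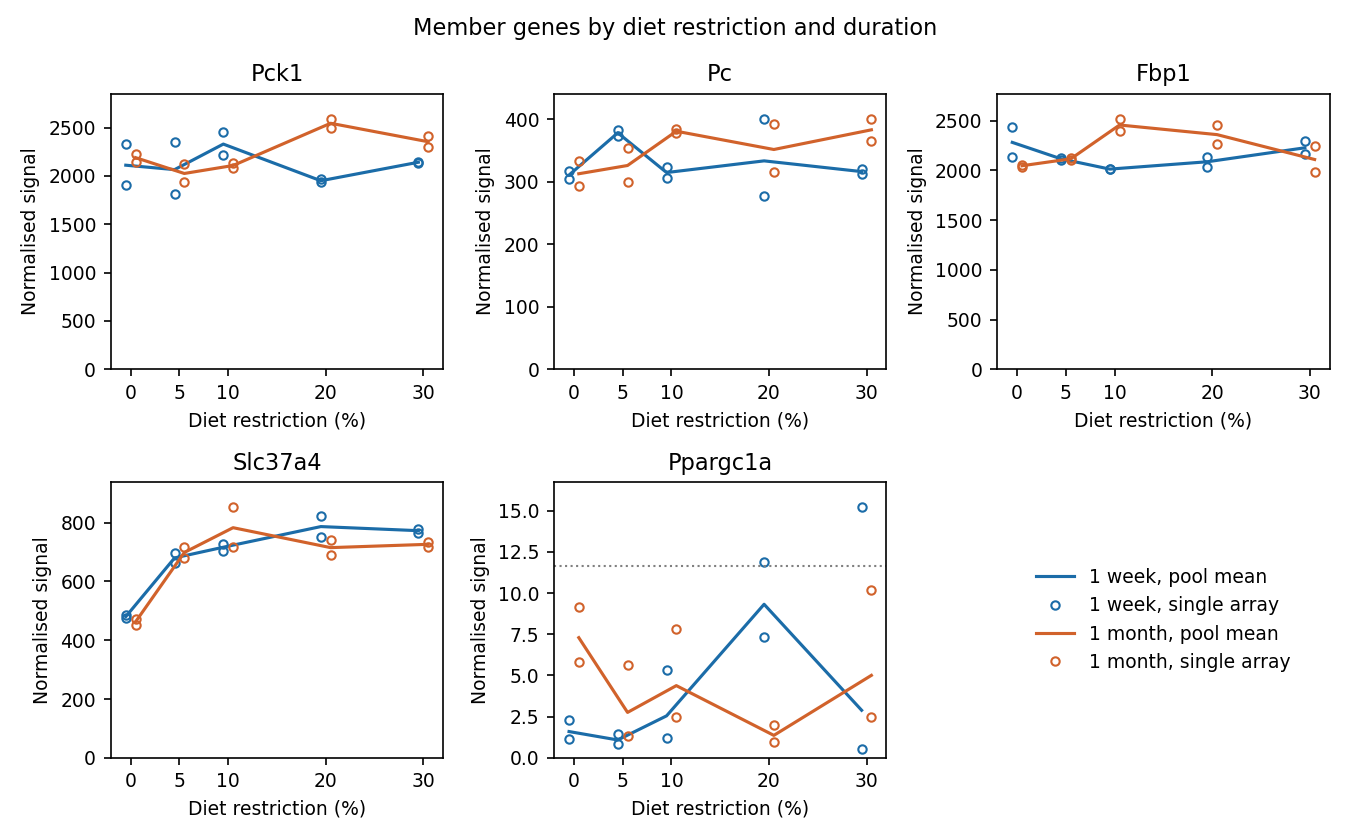
Normalised signal (linear, from 0) of the 5 members with a probe set of their own against diet restriction in percent. Lines join the pool means at 1 week (blue) and 1 month (orange), circles are single arrays and the dotted line is the lowest mean signal tested, 11.7. Slc37a4 moves from 453 to 484 in control arrays to 663 to 852 in restricted arrays, and 18 of 20 Ppargc1a arrays lie under the dotted line.

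After quantile normalisation, most of the rise in Slc37a4 was present at the mildest restriction. Against the same 2 control pools, which all levels share, the difference was 0.55 ± 0.0951 at 5% (1.46-fold, limma adjusted p = 0.0491). It was 0.67 at 10% (1.59-fold, adjusted p = 0.00826), 0.67 at 20% (1.59-fold, adjusted p = 0.00533) and 0.67 at 30% (1.59-fold, adjusted p = 0.00372), each with an SE of 0.0951. At each level 1 of 4 members passed, where 0.452% of probe sets passed at 5%, 2.18% at 10%, 3.8% at 20% and 4.53% at 30%. The order of the pools was not an order of dose. The highest 3 were 20% at 1 week, 10% at 1 month and 30% at 1 week, whose arrays overlapped from one to the next. After normalisation the lowest restricted pool, 5% at 1 week, lay clear of the control pool at 1 week. In the signals as deposited its arrays (437.9 and 575.6) overlapped those control arrays (388.7 and 514.2). At 1 week the difference at 5% was 0.17 as deposited, against 0.78, 1.03 and 0.57 at 10, 20 and 30%. With median centring it was 0.15, against 0.41, 0.66 and 0.51. At 1 month the 5% pool stood 1.16 above its control as deposited and 0.85 with median centring (0.88 and 0.67 at 30%).

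The calls at single levels rest on few pools. The 5% call held in 15 of 41 alternatives, with adjusted p up to 0.597, and was lost without any 1 of the 10 pools (adjusted p from 0.0524 to 0.318). The 10% call was lost without the 1 week control (0.69, adjusted p = 0.0585), the 1 month control (0.65, adjusted p = 0.085) or the 10% pool at 1 month (0.57, adjusted p = 0.105). The 20% call was lost without the 1 month control (0.65, adjusted p = 0.0731) or the 20% pool at 1 week (0.60, adjusted p = 0.107). The 30% call was lost without the 1 month control (0.65, adjusted p = 0.0553) or the 30% pool at 1 week (0.63, adjusted p = 0.0561). The direction was upwards in each of these fits.

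As a straight dose trend, the log2 change over 30 percentage points of restriction with duration as a covariate, Slc37a4 gave 0.50 ± 0.166 (95% interval 0.14 to 0.86) and did not pass (limma adjusted p = 0.122). None of the 4 tested members passed this trend, where 3.76% of probe sets did. With the step and the slope in 1 fit, the step was 0.58 ± 0.0886 (adjusted p = 0.00927). The slope among the restricted pools was then 0.11 ± 0.0988 (95% interval -0.10 to 0.33, adjusted p = 0.71), where 0.704% of probe sets passed. The slope at 1 week was 0.56 (adjusted p = 0.292) and at 1 month 0.44 (adjusted p = 0.584), and their difference, -0.13 ± 0.346, did not pass (adjusted p = 0.983). Leaving out 1 pool moved these slopes by over 1.5 times, and none of them passed. The 1 week slope was 0.23 without the 1 week control and 0.94 without the 30% pool at 1 week, and the 1 month slope was -0.01 without the 1 month control and 0.79 without the 30% pool at 1 month.

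Pck1, the enzyme most often read as a marker of gluconeogenic gene expression, did not pass any test. Its signal at 1 week was 2111 in the control pool, 2065 at 5%, 2329.6 at 10%, 1950.5 at 20% and 2142 at 30%. At 1 month it was 2189.5 in the control pool, 2026 at 5%, 2108 at 10%, 2545 at 20% and 2354 at 30%. After quantile normalisation, the 1 month arrays at 5 and 10% lay below both control arrays and those at 20 and 30% above both. The 1 month pools at 5 and 10% were above their control with median centring (0.10 and 0.14) and as deposited (0.41 and 0.35). At 1 week every restricted pool overlapped the normalised control arrays, which themselves ran from 1910.2 to 2333. The step was 0.02 ± 0.0850 (95% interval -0.16 to 0.21, limma adjusted p = 0.933). Under this normalisation a change beyond 1.15-fold upwards lies outside the interval. Over 41 alternatives the step ran from -0.05 to 0.25, the upper value beyond that interval, and passed in 0. The dose trend was 0.10 ± 0.0907 (adjusted p = 0.623), and the slope at 1 month was 0.23 ± 0.122 (95% interval -0.04 to 0.49, adjusted p = 0.565).

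Pc, the mitochondrial entry enzyme, was higher in all 8 restricted pools than in both controls but did not pass the test. At 1 week its signal was 310.5 in the control pool, 378 at 5%, 314 at 10%, 333 at 20% and 316 at 30%. Its 1 month pools were at 313 in the control, 326 at 5%, 380.5 at 10%, 351 at 20% and 383 at 30%. Single arrays overlapped, with the controls between 294 and 333 and the restricted arrays between 277 and 401, of which 9 of 16 were above all 4 control arrays. The step was 0.15 ± 0.0931 (1.11-fold, 95% interval 0.968 to 1.28, limma adjusted p = 0.403). All restricted pools above both controls was a pattern of 719 of the 9520 probe sets (7.55%), Slc37a4 among them. For Pc it did not hold under the other scalings. At 1 week the pools at 5 and 30% were below their control in the signals as deposited (-0.05 and -0.13), and those at 5, 10 and 30% with median centring (-0.06, -0.14 and -0.18), while all 4 pools at 1 month stayed above.

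Fbp1, which acts at the fructose bisphosphate step, did not pass in any comparison. At 1 week its signal was 2280.5 in the control pool, 2115 at 5%, 2012 at 10%, 2086 at 20% and 2226 at 30%, so all 4 restricted pools were below their control. At 1 month it was 2046 in the control pool, 2115 at 5%, 2455 at 10%, 2358 at 20% and 2108 at 30%, so all 4 were above theirs. The mean difference from control was -0.11 on the log2 scale at 1 week and 0.14 at 1 month, and the step over both was 0.01 ± 0.0762 (95% interval -0.15 to 0.18, limma adjusted p = 0.954). The opposed directions were not tested as such. They were also present with median centring, and not in the signals as deposited, where the 1 week pools at 10 and 20% were above their control (0.05 and 0.25). The slopes at the 2 durations differed by 0.06 ± 0.175 (adjusted p = 0.983).

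**Figure D2:**
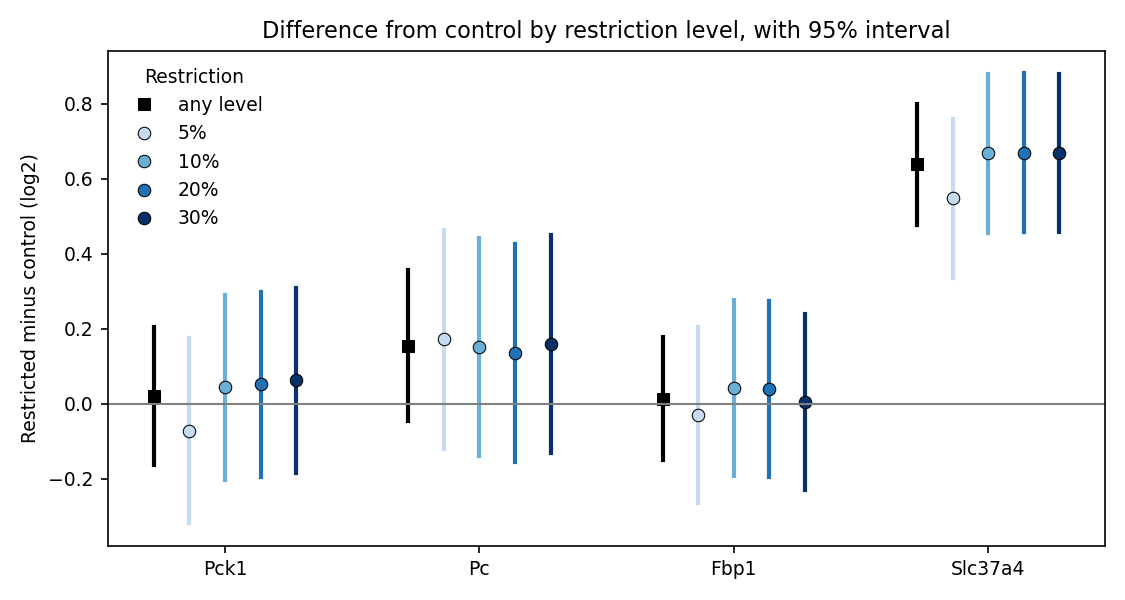
Difference between restricted and control pools (log2) for the 4 tested members, at any level (black squares) and at each level (circles, darker with more restriction), with 95% intervals from the limma fits. The 5 intervals of Slc37a4 lie above 0, with 0.64 at any level, and all 15 intervals of Pck1, Pc and Fbp1 include 0.

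Neither duration nor its interaction with dose moved a member past the threshold. The difference between 1 month and 1 week, with percent restriction as a covariate, was 0.08 for Pck1, 0.08 for Pc, 0.05 for Fbp1 and -0.02 for Slc37a4 (limma adjusted p from 0.721 to 0.966), where 0.336% of probe sets passed. The slope at 1 week passed in 0.714% of probe sets, the slope at 1 month in 0.0315%, and both in 0 of the 4 members. The difference of the slopes passed in 0 of 9520 probe sets by limma, and 525 had an unadjusted p under 0.05.

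By a rule of size alone, a log2 difference of at least 1 from the control pool of the same duration with the arrays apart, Slc37a4 was called in 0 of its 8 restricted pools, and so were Pck1, Pc and Fbp1. Of all probe sets, 17.8% met the rule in at least 1 of the 8 pools. The signals as deposited, which were not on a common scale, put Slc37a4 past it in 4 pools. These were 20% at 1 week (1.03) and 5, 10 and 20% at 1 month (1.16, 1.16 and 1.06).

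Glucose 6-phosphatase, the last enzyme of the pathway, could not be read on its own. Of the 4 probe sets that list Psme3, Aoc3 and G6pc1 together, 1386944_a_at has an accession that the RefSeq gene table pairs with G6pc1, and the accessions of the other 3 are not in that table. Psme3 encodes a proteasome activator subunit and Aoc3 a cell-surface amine oxidase. The probe sets are therefore described by their IDs. At 1 week 1386944_a_at had a signal of 1749.9 in the control pool, 1379.9 at 5%, 727 at 10%, 533 at 20% and 1291 at 30%. At 1 month it had 1991 in the control pool, 727 at 5%, 997 at 10%, 1282 at 20% and 1039 at 30%. After normalisation all 16 restricted arrays (510.2 to 1425) lay below all 4 control arrays (1532 to 2213). This separation downwards was shown by 157 of the 9520 probe sets (1.65%). As deposited the arrays overlapped. The lowest control array, at 1 month, read 1292.1, against 1374.5 and 1514.3 at 20% and 1653.8 in 1 array at 30%. Each restricted pool still stood below the control of its duration.

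The step of 1386944_a_at was -0.97 ± 0.290 on the log2 scale (95% interval -1.60 to -0.35), a 1.96-fold lower signal that did not pass (limma adjusted p = 0.0755). Over 41 alternatives its adjusted p ran from 0.00487 to 0.397, and it passed in 6. They were median centring (adjusted p = 0.0378), the arrays numbered 2 alone (0.043), the fit on single arrays with a replicate block (0.00487), and the fits without the 5% pool at 1 week (0.0224), without the 30% pool at 1 week (0.0495) and without array 1 of the 1 week control (0.0464). The lowest pool was 20% at 1 week and the next were 10% at 1 week and 5% at 1 month, whose arrays overlapped each other. The 30% pools were not the lowest at either duration, and the dose trend, -0.48 ± 0.432, did not pass (adjusted p = 0.603).

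A second probe set of this kind, 1370725_a_at, had the same lowest 3 pools. At 1 week its signal was 795 in the control pool, 744 at 5%, 350.1 at 10%, 303 at 20% and 619.8 at 30%. The pools at 1 month read 948 in the control, 373 at 5%, 514 at 10%, 698 at 20% and 624 at 30%. Of its 16 restricted arrays, 15 lay below all 4 control arrays after normalisation. As deposited, the arrays of 20% at 1 month (738.4 and 869) were above the lowest control array (624.6, at 1 month). The step was -0.79 ± 0.291 (1.73-fold lower, limma adjusted p = 0.154). Both probe sets met the rule of size downwards in 3 pools, 10 and 20% at 1 week and 5% at 1 month, where 9.99% of all probe sets met it downwards in at least 1 of the 8 pools. In the signals as deposited 1386944_a_at met it in 2 pools, 10 and 20% at 1 week (-1.03 and -1.35), and 1370725_a_at in 1, 20% at 1 week (-1.06). The other 2 were dim and gave small steps. 1372506_at, with pools from 77.5 to 116, had a step of -0.14 ± 0.142 (adjusted p = 0.671), and 1388582_at, with pools from 75.2 to 90.3, had a step of 0.07 ± 0.102 (adjusted p = 0.759).

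**Figure D3:**
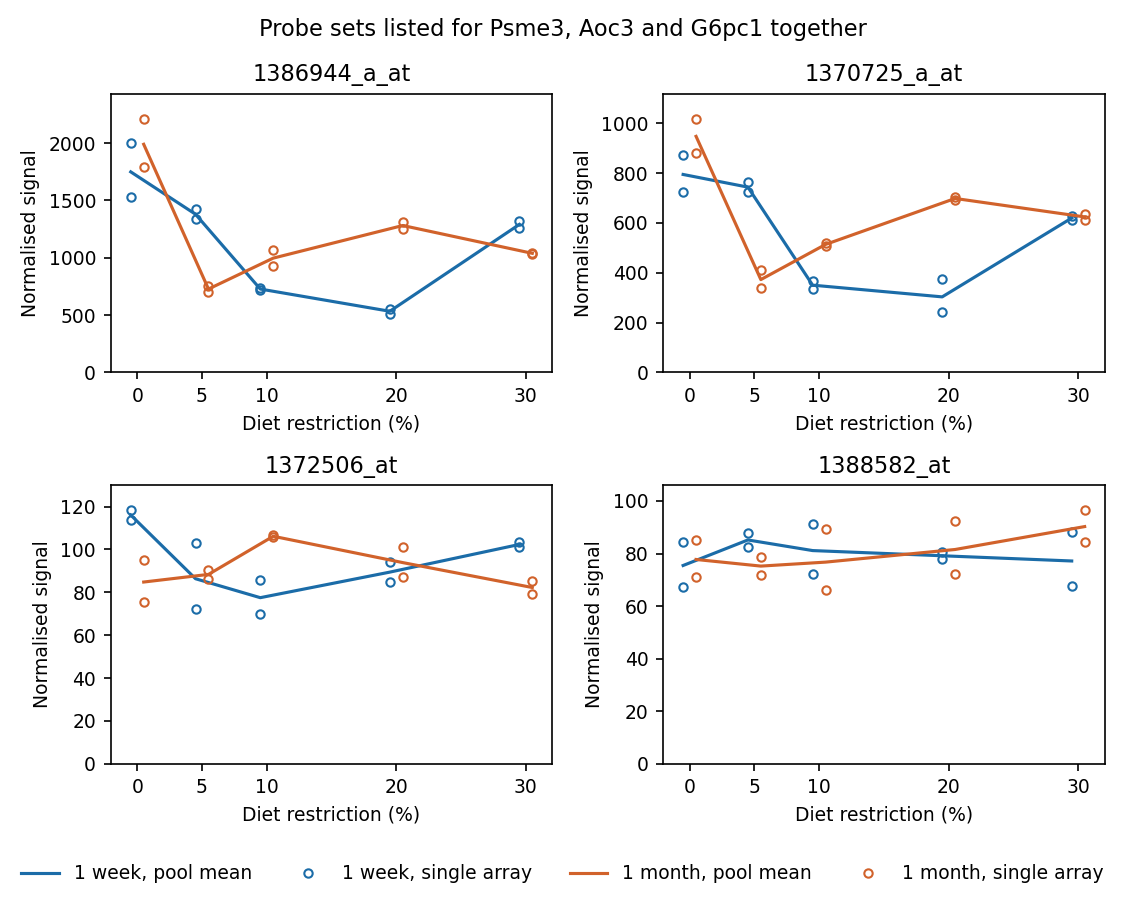
Normalised signal (linear, from 0) of the 4 probe sets that list Psme3, Aoc3 and G6pc1 together, against diet restriction in percent, with pool means as lines and single arrays as circles at 1 week (blue) and 1 month (orange). In 1386944_a_at the control arrays lie between 1532 and 2213 and every restricted array lies at or under 1425, while 1372506_at and 1388582_at stay between 66.0 and 118.

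Ppargc1a, the coactivator that fasting is known to raise in liver, was close to the bottom of the scale. Its pools at 1 week had a signal of 1.60 in the control, 1.08 at 5%, 2.55 at 10%, 9.32 at 20% and 2.89 at 30%. At 1 month they had 7.29 in the control, 2.76 at 5%, 4.38 at 10%, 1.36 at 20% and 5.01 at 30%. Of its 20 arrays, 18 were under 11.7, the lowest mean signal tested. The 2 arrays of 30% at 1 week read 0.548 and 15.2, and paired arrays had a median SD of 0.977 in log2 units, against 0.0451 for Pck1. Neighbours in the order of its pools could not be told apart, since the arrays of every such pair overlapped. The rule of size was met upwards by the 20% pool at 1 week (2.55). Downwards it was met by the 5 and 20% pools at 1 month (-1.40 and -2.42). The pool signals compared were all under 11.7, and 17.8% of tested probe sets met the rule in at least 1 of 8 pools. With the filter on low signals removed, its step was -0.20 ± 0.750 (95% interval -1.81 to 1.42, limma adjusted p = 0.953), so a step was not detectable at this signal.

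The genes that work with Ppargc1a, or that it is known to raise, did not move one way. Of 13 tested genes, 2 rose in the step, 1 fell and 10 did not pass, and in the dose trend 0 of 13 passed. Of all probe sets, 5.27% passed in the step and 3.76% in the dose trend. Cpt1a, which commits fatty acids to mitochondrial oxidation, rose from pools of 558 and 510.4 in the controls to between 963 and 1417 (1.15 ± 0.122, 2.22-fold, limma adjusted p = 0.000723). Cpt2, its inner-membrane partner, rose by 1.03 ± 0.144 (adjusted p = 0.00236). Pdk4, a kinase that blocks pyruvate oxidation, fell by 0.93 ± 0.243 (adjusted p = 0.0446). The list's median step was -0.0038 on the log2 scale, and that of all probe sets 0.00225.

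A list of the enzymes that gluconeogenesis shares with glycolysis also held Pck2, the mitochondrial phosphoenolpyruvate carboxykinase, and none of its members passed in either test. It had 7 tested genes, 0 rose, 0 fell and their median step was -0.18. The lowest p in the step was that of Pgk1, phosphoglycerate kinase, with 751 and 731 in the control pools and between 497 and 694 in the restricted pools (-0.38, limma adjusted p = 0.0582). The step was -0.22 in Eno1, enolase (adjusted p = 0.16), and -0.20 in Pgam1, phosphoglycerate mutase (adjusted p = 0.2). It was 0.24 in Pck2 (adjusted p = 0.801) and 0.16 in Gpi, glucose phosphate isomerase (adjusted p = 0.381), the last of these named after its value was seen.

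Among 23 genes that bring substrates to the pathway, 4 rose and 2 fell in the step, where 5.27% of all probe sets passed. In the dose trend 4 rose and 2 fell, where 3.76% passed. The median step was 0.15. Sds, serine dehydratase, which makes pyruvate from serine, rose from 206 and 254 in the control pools to between 316 and 1493 (1.63 ± 0.323, 3.09-fold, limma adjusted p = 0.014). Aqp9, the liver's glycerol channel, rose from 336 and 374 to between 453 and 586 (0.49 ± 0.0923, adjusted p = 0.0109). Slc25a10, the mitochondrial dicarboxylate carrier, rose by 0.77, and Mpc2, a subunit of the mitochondrial pyruvate carrier, by 0.37. Slc16a1, a lactate transporter, fell from 334 and 284 to between 107 and 246 (-0.98 ± 0.239, adjusted p = 0.0318), and Pdk4 was the other gene that fell.

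In the dose trend of the same list the fall with the smallest p was in Slc25a1, the citrate carrier, by 1.10 ± 0.131 over 30 percentage points (limma adjusted p = 0.00248). Ldha, lactate dehydrogenase, fell by 0.55 ± 0.0990 (adjusted p = 0.0135). Mpc2 rose by 0.44, Slc38a2, a neutral amino acid transporter, by 1.08, Sds by 1.69 and Gpt, alanine aminotransferase, by 0.53, the last of these named after its value was seen.

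Genes of glycolysis and glycogen handling, with the transporter Slc2a2 and the glucokinase regulator Gckr, moved in both directions. Of 10 tested, 3 rose and 1 fell in the step, where 5.27% of all probe sets passed. In the dose trend 0 rose and 3 fell, where 3.76% passed. Slc2a2, the glucose transporter GLUT2 of the liver cell surface, rose from 679.6 and 635 in the control pools to between 834 and 1168 (0.55 ± 0.104, 1.47-fold, limma adjusted p = 0.0109). Gys2, liver glycogen synthase, rose by 0.97 ± 0.199 (adjusted p = 0.016), and Ugp2, which makes UDP-glucose, by 0.82 ± 0.171 (adjusted p = 0.0177). Pklr, liver pyruvate kinase, fell by 0.87 ± 0.216 in the step (adjusted p = 0.0333) and by 1.11 in the dose trend. Pygl, liver glycogen phosphorylase, fell by 0.95 ± 0.105 in the dose trend (adjusted p = 0.00175), and Gckr by 1.93.

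**Figure D4:**
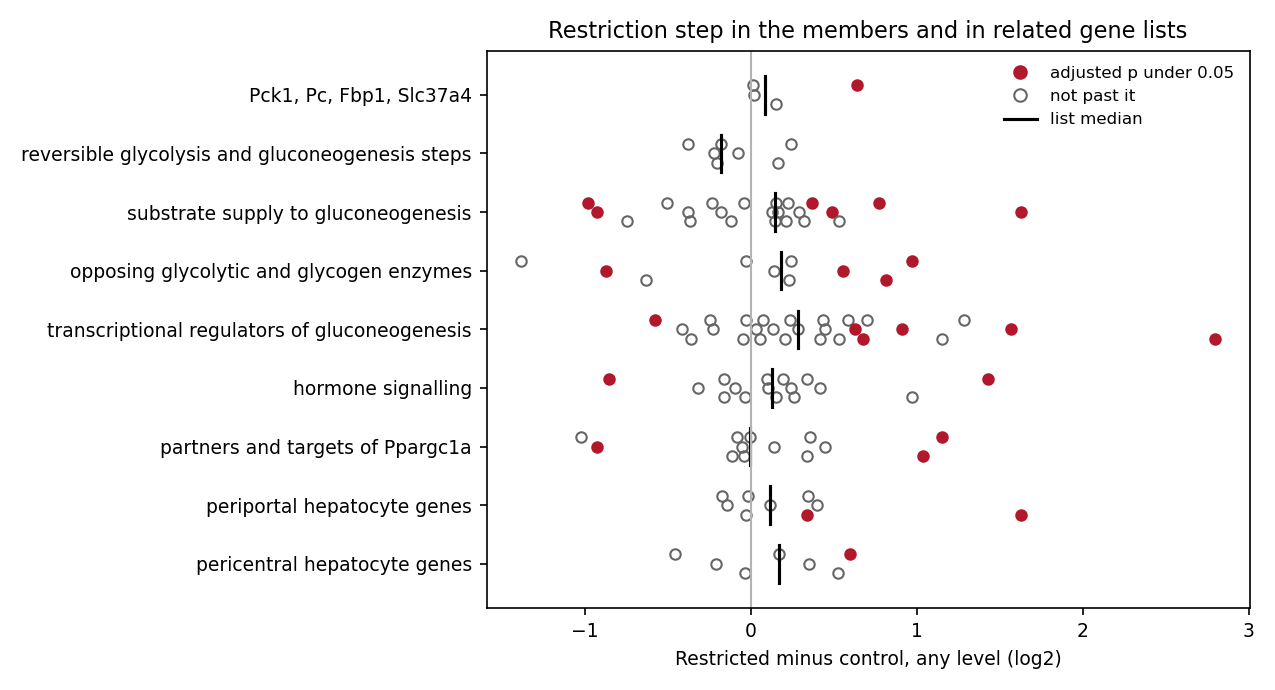
Restriction step (restricted minus control at any level, log2) of each tested gene in the 4 members and in 8 lists of related genes. Red points passed an adjusted p of 0.05, open points did not, and black bars are list medians. Among Pck1, Pc, Fbp1 and Slc37a4 the red point is Slc37a4, at 0.64, and the list of substrate supply has red points from -0.98 to 1.63.

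Of 27 tested transcriptional regulators of the pathway, 5 rose and 1 fell in the step, where 5.27% of all probe sets passed. In the dose trend 3 rose and 0 fell, where 3.76% passed. The median step was 0.28, against 0.00225 for all probe sets. Cry2, a clock repressor, rose from 18.6 and 14.9 in the control pools to between 43.3 and 56.8 (1.57 ± 0.140, 2.96-fold, limma adjusted p = 0.000192). Per2, another clock repressor, read 5.77 and 16.5 in the controls, the first under the lowest mean signal tested, and between 40.3 and 92.7 in the restricted pools. The nuclear receptors Nr1i2 (0.68, adjusted p = 0.0171) and Nr1i3 (0.91, adjusted p = 0.02) rose in both tests. Crtc2, a CREB coactivator, rose in the dose trend by 0.60 (adjusted p = 0.0468). Foxa3 rose by 0.63 and Stat3 fell by 0.58 in the step, and both are named after their values were seen. Foxo1, through which insulin represses the pathway, had a step of -0.41 (adjusted p = 0.166), Creb1 of 0.13 (adjusted p = 0.716) and Hnf4a of 0.20 (adjusted p = 0.518), and these 3 were picked for their known roles.

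Among 16 genes of insulin, glucagon, glucocorticoid and AMP kinase signalling, 1 rose and 1 fell in the step, where 5.27% of all probe sets passed. In the dose trend 0 rose and 1 fell, where 3.76% passed. Irs2, an insulin receptor substrate, read 12.8 and 11.2 in the control pools, the latter under the lowest mean signal tested, and between 15.7 and 41.6 in the restricted pools (limma adjusted p = 0.0123). Prkaca, the catalytic subunit of the cyclic AMP-dependent kinase, fell from 112 and 111 to between 40.5 and 79.4 (-0.85 ± 0.214, adjusted p = 0.0357).

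Gluconeogenic enzymes are known to be higher in periportal than in pericentral hepatocytes, and markers of both zones were counted. Of 9 periportal genes, 2 rose in the step, Sds and the urea cycle enzyme Arg1 (0.34, limma adjusted p = 0.00537), and 0 fell. Of 7 pericentral genes, 1 rose, the cytochrome Cyp2e1 (0.60, adjusted p = 0.00841), and 0 fell. The share of all probe sets that passed upwards in the step was 3.16%.

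The 6 hepatocyte markers on the array had mean signals from 3041 to 10756. The brightest, Alb, has the same value in every pool after quantile normalisation, so it could not change here, and 0 of the other 5 passed in the step. The 7 markers of kidney tubule, the other gluconeogenic tissue, had mean signals from 0.692 to 23.4, and 5 of them were under the filter. The sums of 3 marker lists, like the signal of Slc37a4, did not overlap between control and restricted pools. Of single tested probe sets, 7.55% had all 8 restricted pools above both control pools, the direction of the endothelial sum. The share below both, the direction of the bile duct and Kupffer cell sums, is not given here, nor is a share for sums. The endothelial sum, over 2 genes of which Kdr rose (0.60, limma adjusted p = 0.00899), was 112 to 137 in the controls and 159 to 194 in the restricted pools. The bile duct sum over 3 genes, of which 1 was tested, was 62.7 to 75.2 against 39.2 to 57.0. The Kupffer cell sum over 4 genes was 694 to 695 against 508 to 651, and 0 genes of either list passed. Their part in the results was not tested. The 3′ to 5′ signal ratio of the GAPDH control probe sets was 1.30 to 1.61 and that of actin 2.23 to 3.07, and with these ratios as covariates the Slc37a4 step was 0.61 and 0.62.

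The members' patterns over the 10 pools were also set against those of 7054 named genes, as a description by Pearson's r, with values that share pools and normalisation. The genes named are the extremes of those 7054 values, and the size that such extremes reach by chance was not tested. Slc37a4 was most like Acot12 (0.977), Atg3 (0.976) and the clock gene Cry2 (0.967), and least like Chka (-0.963). Pck1 was most like Rprd1a (0.916), Kgd4 (0.88) and Cdpf1 (0.866), Pc most like Cited4 (0.921), Hnrnpa1 (0.915) and Mgst3 (0.899), and Fbp1 most like Ap1b1 (0.886), Golgb1 (0.853) and Alg1 (0.846). Their least like genes were Mfsd3 (-0.957), Kbtbd4 (-0.924) and Aida (-0.854). In the signals as deposited Chka gave -0.701, Mfsd3 0.38, Kbtbd4 0.617, Aida -0.0941, Cdpf1 0.635 and Cited4 0.672, and the other 10 likenesses were 0.928 or more. The arrays as deposited differ in scale, which all genes share, so high values there cannot bear out a likeness. With median centring Cdpf1 gave 0.448, Cited4 0.537, Hnrnpa1 0.742, Mfsd3 -0.443 and Kbtbd4 -0.373. The others were between 0.802 and 0.968 in size, with 0.936 for Cry2 and -0.907 for Chka. Between members the values were low, with 0.00253 between Slc37a4 and Pck1, 0.162 between Slc37a4 and Fbp1, 0.474 between Slc37a4 and Pc and 0.148 between Pck1 and Fbp1. Between Slc37a4 and 1386944_a_at the value was -0.72.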

How the data were processed

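Liver RNA of 10 pools was hybridised to 20 Affymetrix rat arrays. For each probe set the authors deposited a linear intensity. The submitters' processing notes name MAS5 as its source, and its version and scaling are unknown here. The 2% trimmed mean of an array ran from 38.8 to 99.6 units, a 2.57-fold range, so arrays were quantile normalised, with the signals as deposited as an alternative. Before log2 was taken, 32 zeros were replaced by the lowest value above 0 on that array; 57 control probe sets were left out and the upper 60% of 15866 by mean signal were tested. The 2 arrays of a pool were averaged on the log2 scale, since per the labels' protocols both hold the same RNA, so n is 10 pools. Correlations were 0.948 to 0.971 between arrays of a pool and 0.916 to 0.970 between pools. The number of arrays limits the precision.

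Tests used limma 3.58.1 in R 4.3.3 with a variance trend, two-sided, with Benjamini-Hochberg adjustment over 9520 probe sets and a threshold of 0.05. The scripts were tested on simulated data. Alternatives changed the normalisation, the filter, the log offset, the arrays or pools used, the variance trend, the block and an RNA quality covariate. Gene names came from the platform annotation, for probe sets where it lists 1 gene (8120 tested probe sets; 245 list several, 1155 none), and the RefSeq table changed 0 member symbols. The array names no genome build, so coordinates are given only for the RefSeq windows (5 of 6 members matched). All 6 members were named, and from each list up to 4 genes of smallest p in the dose trend and up to 4 that passed in the step; the few others are marked in the text. The members and lists were chosen with earlier results of these data known. The fit with step and slope together, the differences within each duration and the probe sets that list 3 genes were added after seeing the data.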

Additional observations from a re-analysis of the deposited data

Results flagged for a closer look

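Fbp1 was the 1 result in which every pool of one duration moved one way and every pool of the other the opposite way. Its 4 restricted pools were below the control pool at 1 week (mean -0.11 on the log2 scale, single pools from -0.18 to -0.03) and above it at 1 month (mean 0.14, single pools from 0.04 to 0.26). The means differ by 0.253, and this difference was not tested. Each mean rests on 1 control pool, and the 2 arrays of the control at 1 week read 2135 and 2436. The pattern was not present in the signals as deposited, where the 1 week pools lay on both sides of their control (-0.39 to 0.25).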

How the results depend on the processing

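The Slc37a4 step kept its direction and its call in 41 of 41 alternatives, from 0.61 with the arrays numbered 1 alone to 0.85 in the signals as deposited. Of 1640 values for the 4 tested members, 41 lost a call, 1 gained one and 0 reversed, all 42 of them in Slc37a4, and 92 that were never called changed sign. The count of members called fell from 1 to 0 at 5% with the signals as deposited, median centring, no filter, the arrays numbered 1 or 2 alone, no variance trend or either RNA ratio, at 10 and 20% with median centring or no variance trend, and at 30% with the signals as deposited, median centring, no variance trend or the actin ratio. The cause was not tested. Leaving out single arrays gave counts of 0 to 1 at 5%, and leaving out single pools gave 0 to 1 at each level. With the array number as a replicate block and pool as a random block, the dose trend gave 1 member, Slc37a4 (0.50, limma adjusted p = 0.014). The numbers showed little sign of pairing the arrays, since the difference between arrays 1 and 2 correlated above 0.1 in 2 of 45 pairs of pools. The highest value was 0.121. Whether the numbers mark a shared run is not settled by this. Over all probe sets and the 11 settings that leave out no pool or single array, the calls ran from 192 to 884 for the step (502 reported; 62 without the 1 month control pool), from 3 to 818 for the dose trend (358 reported), and at 5, 10, 20 and 30% up to 276, 674, 885 and 1002 (43, 208, 362 and 431 reported) and down to 0, 0, 0 and 1. The highest counts were those with the block. Among the probe sets that list 3 genes, 1372506_at at 20% turned to 0.30 in the signals as deposited, and 1370725_a_at at 5% ran from -1.47 to 0.0303 when single pools were left out. Low signal limits Ppargc1a, whose step ran from -1.28 to 0.88 when 1 control pool was left out.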
